A study of Saccharomyces cerevisiae with 5 samples.

Results

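The small subunit of the cytosolic ribosome of budding yeast is built from 1 ribosomal RNA and the RPS proteins, whose mRNAs were compared between a strain that lacks the chitin synthase gene CHS2 (chs2Δ) and its wild type parent. Genes were taken by name alone, as those whose array name was RPS followed by a protein number and, for duplicated genes, the letter A or B. The rule found 56 of the 6256 genes on the array. Of these, 8 were single-copy genes and 48 formed 24 complete A and B pairs. They were read by 93 of 10263 gene spots, with 37 genes on 2 spots and 19 genes on 1 spot, and the name of each of the 56 matched its RefSeq symbol.

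The series held 5 arrays with 2 colours, each hybridised with labelled cRNA of chs2Δ in 1 dye and of wild type in the other. The mutant YFR23 carries a chs2 deletion marked with KanR (chs2::KANMX4) made by homologous recombination in the haploid wild type strain MGD353-46D, and both strains are listed as MATα with mutant alleles of trp1, ura3, leu2 and his3 (his3delta1) and as ADE+ ARG cyhR. Cultures grew at 26 °C. The authors list complete synthetic medium and the same medium without histidine for their strains together, and do not say which strain grew in which. The sample records count 5 replicate cultures while the design text also speaks of triplicates. Array titles name YJR6, the myo1Δ strain of the same laboratory, whereas the source fields and raw files name YFR23, which was followed here. The mutant was in Cy5 on replicates 1, 3 and 5 and in Cy3 on replicates 2 and 4. A single deletion strain was used, so the values describe that strain.

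Cytosolic ribosomes of yeast hold a large and a small subunit, and the small subunit binds mRNA, scans for the start codon and checks the pairing of codon and anticodon. Genes for its proteins are among the most strongly transcribed in growing cells and are switched as a block by Rap1, Fhl1, Ifh1, Sfp1 and Hmo1 downstream of the TOR and protein kinase A pathways. Most of them exist as a pair of near-identical copies left by an ancient genome duplication, and the copies often differ more in promoter, intron and untranslated region than in protein. Chs2, the deleted enzyme, makes the primary septum at the bud neck during cytokinesis.

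CHS2 itself had log2 ratios (chs2Δ over wild type) of -0.35, -0.56, -0.95, -1.63 and -0.58 on replicates 1 to 5, with a mean of -0.81 ± 0.17 (SE, n = 5, limma adjusted p = 0.00249). It was thus lower on all 5 arrays, but its spots were still above background in the chs2Δ channel on 4 of them. Before normalization the chs2Δ channel was dimmer on every array, with median gene signals between 79.29 and 201.1 in chs2Δ and between 216.8 and 440 in wild type. The markers that MATα cells should carry (MF(ALPHA)1, MF(ALPHA)2, STE3 and SAG1) were lower in chs2Δ in 4 of 4 cases, with a median of -2.48, while 0 of 5 MATa markers passed the test (median 0.03). After loess 36% of all genes were called lower and 35.7% were called higher. When each array was centred on its median instead of fitted by loess, those 5 MATa markers were called higher, beside 41.5% of all genes. The part of these markers in the results was not tested. Replicate 4 stood somewhat apart, with the lowest median over the RPS genes (-1.57, against -1.30 to -1.09 on the other arrays) and with 5 of the 7 single-array deviations found among RPS genes and pairs.

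The mRNAs of the small subunit were lower in chs2Δ nearly throughout. In limma's moderated test with Benjamini-Hochberg adjustment over all 6246 genes tested, 51 of the 56 RPS genes (91.1%) were lower in chs2Δ, 0 were higher and 5 did not pass an adjusted p of 0.05. On the whole array 36% of the genes were called lower and 35.7% were called higher, so that 71.6% had a call. At an adjusted p of at most 0.01, 50 RPS genes were lower beside 30.6% of all genes, and 51 were lower at 0.01 or less without adjustment, beside 32.1%. The median RPS log2 ratio was -1.28, or 0.413 of the wild type level, beside -0.0062 over all genes tested. By size, 37 RPS genes (66.1%) were called and at least 2-fold lower, against 5.48% of all genes. These sizes depend on the scaling: when each array was centred on its median instead, the RPS median was 0.245 of wild type, and 52 RPS genes (92.9%) were called and at least 2-fold lower, against 13.6% of all genes. Of the 100 genes with the lowest ratios on the array, 16 were RPS genes and 20 were RPL genes of the large subunit. Without replicate 4 the count stayed at 51, beside 35.7% of all genes, and the median was -1.19. On the 2 arrays of slide 2 alone 49 of 55 RPS genes were lower (median -1.25), beside 31.2% of all genes. On the 2 arrays of slide 3 alone 52 of 56 were lower (median -1.32), beside 25.5%, while slide 1 held 1 array. In bulk RNA, less mRNA per cell and a changed mixture of cells cannot be told apart.

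The 5 arrays agreed on this direction gene by gene. The array medians over the RPS genes were -1.10, -1.30, -1.09, -1.57 and -1.13 on replicates 1 to 5. Of the 56 RPS genes 51 were below 0 on every array on which they were measured, beside 36.2% of all genes. They were the same 51 genes as those called lower, and the calls came from these arrays, so this count is no separate evidence. Standard errors ran between 0.0485 and 0.2756, whereas the SD among the 56 mean ratios was 0.55, so the RPS genes differed among themselves by more than their measurement error. Ratios of 2 arrays over the RPS genes had Pearson correlations between 0.756 and 0.967 and Spearman correlations between 0.682 and 0.975, a description over genes that are no independent replicates. Duplicate spots of 1 gene on 1 array differed by a median of 0.15 over 160 such pairs.

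**Figure D1:**
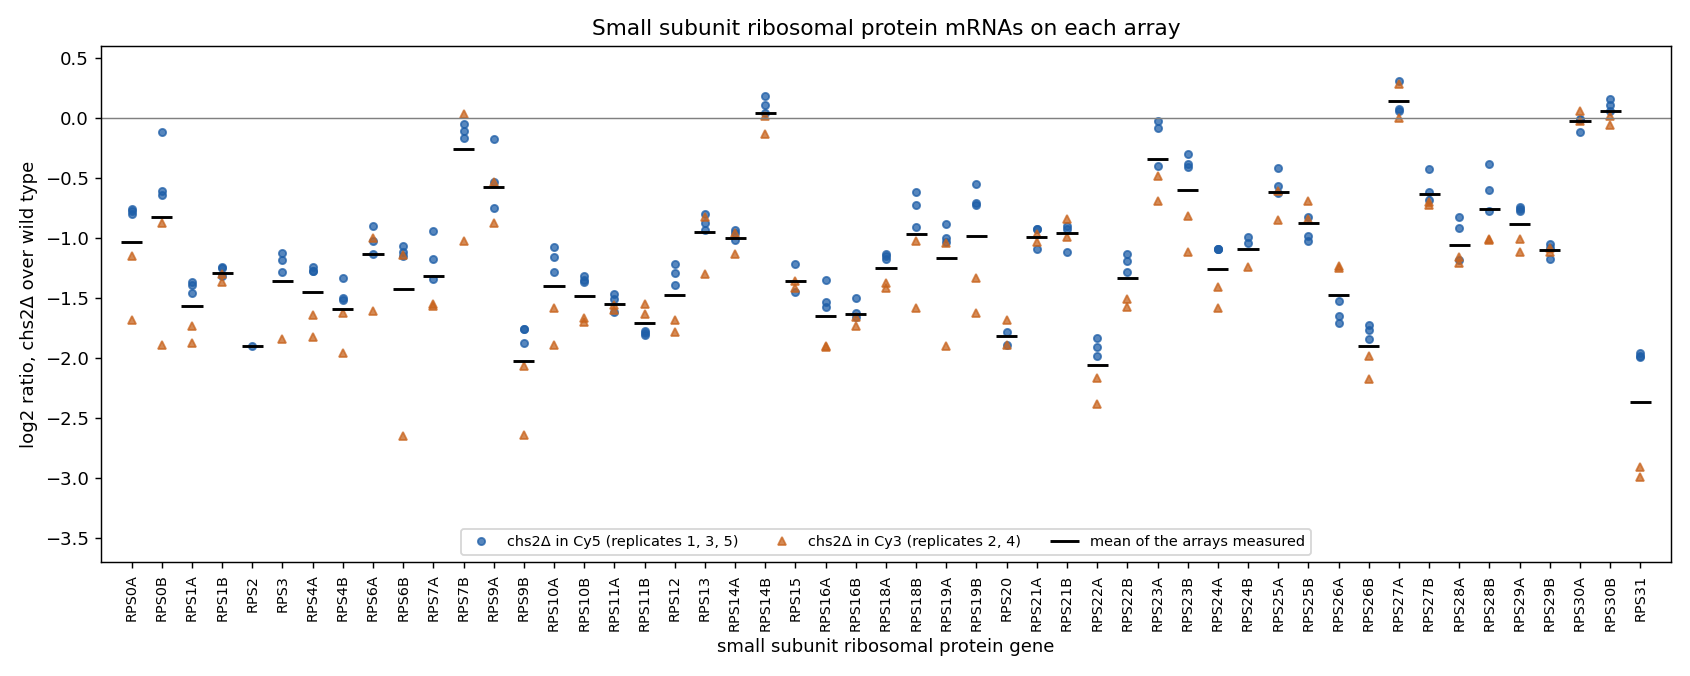
Log2 ratio of chs2Δ over wild type for 51 of the 56 RPS genes on each array, with circles for arrays that held chs2Δ in Cy5, triangles for arrays that held it in Cy3 and a bar for the mean. Apart from RPS7B, RPS14B, RPS27A, RPS30A and RPS30B, all points lie below 0, and RPS31 lies lowest with a mean of -2.37.

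Among the single-copy genes all 8 were lower, with a median of -1.59. RPS31, which encodes ubiquitin fused to the Rps31 protein and so feeds both the ribosome and the ubiquitin pool, had the lowest ratio of the 56. Its log2 ratios were -1.99, -2.99, -1.99, -2.91 and -1.96 on replicates 1 to 5 (mean -2.37, SE 0.18, adjusted p = 6.85e-06), which is 0.194 of wild type. Background-subtracted signals of RPS31 before normalization were between 591.2 and 1248.3 in chs2Δ and between 14614.7 and 29175.1 in wild type. The median gene of the array was also dimmer in chs2Δ before normalization, at 79.29 to 201.1 against 216.8 to 440 in wild type. The RPS31 ratio was the fifth lowest of the whole array. The arrays with chs2Δ in Cy3 gave clearly lower values than those with chs2Δ in Cy5, but both sets lay far below 0.

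The other single-copy genes were lower by less than RPS31. RPS20, which encodes a head protein that is ubiquitinated when ribosomes collide, had -1.78, -1.89, -1.89 and -1.68 on replicates 1 to 4 (mean -1.81, adjusted p = 7.01e-07). RPS3 encodes a protein of the mRNA entry site and had a mean of -1.36 over 4 arrays, and RPS15, a head protein near the decoding site, had -1.36 over 4 arrays as well. RPS12, which encodes a protein of the beak of the head, averaged -1.47, between -1.78 and -1.22. The smallest decrease of a single-copy gene was that of RPS13, a body protein, with -0.80, -0.83, -0.93, -1.30 and -0.88 on replicates 1 to 5 (mean -0.95, adjusted p = 1.38e-05).

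RPS2, which encodes another protein of the mRNA entry site, was measured on replicate 5 alone, where its log2 ratio was -1.90 and its signal 2569.3 in chs2Δ and 37815 in wild type. Its spot was saturated in the wild type channel on the other 4 arrays, where it was also marked poor and left out, so its adjusted p of 0.000538 assumes that this gene varies between arrays as others do. With the poor spots kept, RPS2 had -1.72, -2.35, -1.60, -2.58 and -1.80 on replicates 1 to 5 (mean -2.01, SE 0.14). All 5 of these values were low, and on the saturated arrays the true wild type level has only a bound. Another 5 genes lost arrays to poor spots, among them RPS3, RPS15 and RPS20 with 4 arrays each and RPS24B with 3. In all, 35 of 465 RPS spot measurements (7.53%) were marked poor, beside 1.63% over all gene spots. The RPS spots were bright, each of the 56 genes being above the median gene of the array, but they differed widely in brightness among themselves.

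Of the 48 duplicated genes 43 were lower, with a median of -1.15. The A copies had a median of -1.21 with 22 of 24 lower, and the B copies had a median of -1.10 with 21 of 24 lower. The lowest of them was RPS22A, a body protein gene, with -1.84, -2.17, -1.98, -2.39 and -1.91 on replicates 1 to 5 (mean -2.06, adjusted p = 5.17e-07). RPS9B, whose product binds early to the ribosomal RNA of the body, followed with -1.88, -2.07, -1.76, -2.64 and -1.76 (mean -2.02, adjusted p = 2.85e-06). RPS26B had a mean of -1.90 and was low on all 5 arrays, between -2.18 and -1.73. Counting single genes in too, 16 of the 56 lay at or below -1.5, and 14 of the 51 called genes lay above -1.

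At the weak end of the called genes stood RPS23A, 1 of 2 genes for a protein of the decoding centre. RPS23A had -0.40, -0.48, -0.09, -0.70 and -0.03 on replicates 1 to 5 (mean -0.34, SE 0.10, adjusted p = 0.0152), with replicates 3 and 5 close to 0. This call was lost without replicate 2 (adjusted p = 0.058), on the arrays of slide 2 alone (0.054) and without background correction (0.0506). Its copy RPS23B had -0.60 (adjusted p = 0.00203). RPS9A at -0.58, RPS25A at -0.61 and RPS27B at -0.63 were the next smallest, and each was below 0 on all 5 arrays.

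By place in the subunit, 22 of 22 genes for proteins of the head were lower (median -1.35), as were 29 of 34 genes for proteins of the body (median -1.20), and the 5 genes without a call all belonged to the body. This is a count and no test between head and body. Among the head genes were RPS10A and RPS10B at -1.40 and -1.48 and RPS16A and RPS16B at -1.65 and -1.64. RPS18A and RPS18B, whose protein bridges to the large subunit, had -1.25 and -0.97, and RPS29A and RPS29B, genes of a small zinc-binding protein, had -0.88 and -1.10. RPS19A and RPS19B had -1.17 and -0.99, and human RPS19 is the gene most often mutated in Diamond-Blackfan anaemia. RPS25A and RPS25B, for a protein used by some viral and cellular internal ribosome entry sites, had -0.61 and -0.88, and RPS25A was the highest of the head.

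In the body, RPS4A and RPS4B had -1.45 and -1.59, and RPS11A and RPS11B had -1.55 and -1.71. RPS1A and RPS1B, genes of a platform protein near the mRNA exit, had -1.56 and -1.30. RPS6A and RPS6B encode the protein that the TOR pathway phosphorylates through the kinase Ypk3 and had -1.13 and -1.42. RPS6B was near -1.1 on 4 arrays and at -2.65 on replicate 4, and on the 4 other arrays the A minus B difference was between -0.02 and 0.26. RPS0A, RPS0B, RPS21A and RPS21B, whose products meet on the back of the subunit, had -1.03, -0.83, -0.99 and -0.96. RPS24A and RPS24B had -1.26 and -1.09.

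The 5 genes without a call were RPS7B, RPS14B, RPS27A, RPS30A and RPS30B. RPS30A and RPS30B, genes of a small basic protein at the mRNA entry, were near 0 on every array, RPS30A between -0.12 and 0.06 (mean -0.022, adjusted p = 0.705) and RPS30B between -0.06 and 0.16 (mean 0.055, adjusted p = 0.381). Their 95% confidence intervals were -0.14 to 0.09 for RPS30A and -0.07 to 0.18 for RPS30B, so after loess a decrease of the size of the RPS median lay outside both. RPS14B had 0.18, 0.02, 0.10, -0.14 and 0.04 on replicates 1 to 5 (mean 0.042, adjusted p = 0.549). It is known as the minor copy for a platform protein, and excess Rps14 protein binds its pre-mRNA and holds back its splicing. RPS27A, for a zinc-binding protein, had 0.06, 0.28, 0.08, -0.0037 and 0.31 (mean 0.14, adjusted p = 0.0756), and RPS7B had -0.11, 0.04, -0.05, -1.02 and -0.17 (mean -0.26, adjusted p = 0.137), where replicate 4 alone was low. RPS7B was called lower with loess fitted without ribosomal protein spots (-0.56, adjusted p = 0.00485) and on slide 3 alone (-0.60, adjusted p = 0.00328).

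These 5 genes depended on the scaling. Loess bends each array so that genes of equal brightness centre on 0, while median centring subtracts only 1 number from each array. After median centring all 56 RPS genes were called lower, beside 41.6% of all genes, none was higher, beside 41.5%, and the RPS median was -2.03. For 36 of them the size was over 1.5 times that after loess. The 5 genes then had -1.08 (RPS7B), -0.55 (RPS14B), -0.45 (RPS27A), -0.57 (RPS30A) and -0.38 (RPS30B), each past the threshold. Their signals before either scaling were lower in chs2Δ on every array, for RPS14B 142.9 to 448.4 in chs2Δ and 612.8 to 1219 in wild type, but so was the median gene. With both scalings these genes stood at the upper end of the RPS genes, whereas the sign of RPS14B, RPS27A and RPS30B flipped between them. Median wild type signals were 613.2 (RPS30B), 910.5 (RPS30A), 993.8 (RPS14B), 1068.3 (RPS27A) and 5644.8 (RPS7B), so all but RPS7B were dim among RPS genes. RPS28B (603.3), RPS28A (650.9) and RPS9A (974.6) were about as dim and were called lower. Whether brightness bears on the missing calls was not tested.

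**Figure D2:**
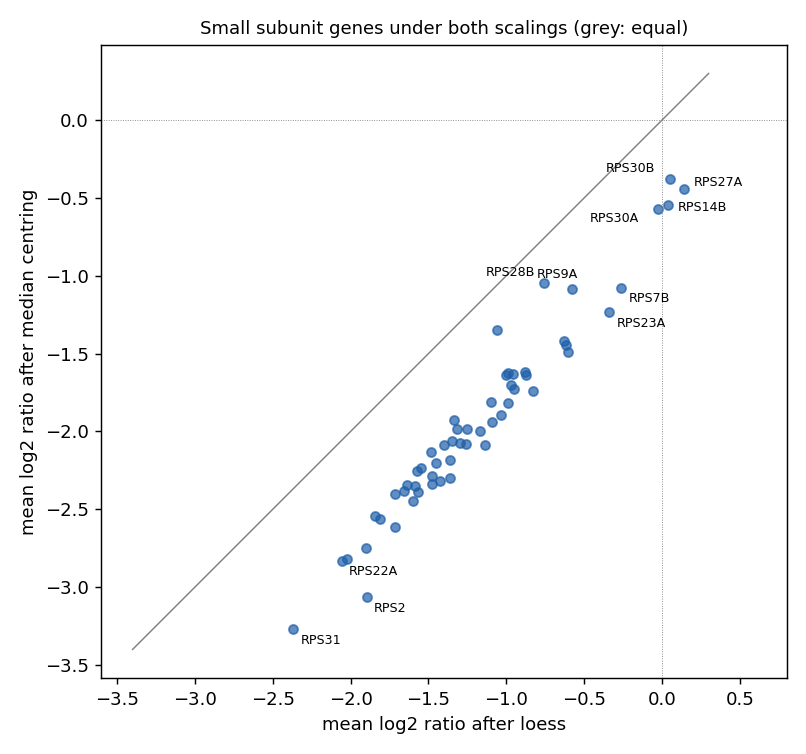
Mean log2 ratio of chs2Δ over wild type of each RPS gene after loess (x axis) and after median centring of each array (y axis), with the grey line marking equal values. All points lie under the line, and the 5 genes near 0 on the x axis, RPS7B, RPS14B, RPS27A, RPS30A and RPS30B, lie between -1.08 and -0.38 on the y axis.

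A and B copies were then compared on each array as the difference of their log2 ratios (A minus B). Of the 24 pairs 13 kept 1 sign on all arrays on which both copies were measured, 7 with A lower and 6 with B lower. In an exact two-sided sign-flip test over 5 arrays the smallest possible p is 0.062, so no pair could pass 0.05. The median size of the difference was 0.264, and 18 pairs differed by less than 0.35 in the mean. In 20 pairs both copies were lower in chs2Δ, in 3 pairs (RPS7, RPS14 and RPS27) 1 copy was lower and in 1 pair (RPS30) neither was. The probe letters were not used here, and whether a probe also bound mRNA of the other copy was not tested.

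In 5 pairs the mean difference was larger than 0.7. RPS9 had the largest, with RPS9A above RPS9B by 1.71, 1.53, 1.01, 1.77 and 1.22 on replicates 1 to 5 (mean 1.45 ± 0.33, SD, n = 5, exact p = 0.062), or 2.73-fold. Background-subtracted signals of RPS9B were 255.4 to 804.9 in chs2Δ and 5842.8 to 12101.1 in wild type, and those of RPS9A were 80.9 to 285.7 in chs2Δ and 449.8 to 1246.8 in wild type. In the RPS7 pair the A copy was lower, with differences of -0.84, -1.59, -1.13, -0.54 and -1.18 (mean -1.06 ± 0.39, SD, n = 5, exact p = 0.062). RPS7A and RPS7B encode a protein that is monoubiquitinated by the E3 ligase Not4.

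RPS14 gave the steadiest of the large differences, all between -1.14 and -0.98 (mean -1.04 ± 0.06, SD, n = 5, exact p = 0.062). RPS14A was lower on every array, between -1.14 and -0.94, with a mean of 0.4995 of wild type (adjusted p = 1.3e-06), and RPS14B stayed within 0.18 of 0. In the RPS27 pair the B copy was the lower, by 0.68, 0.98, 0.76, 0.73 and 0.74 (mean 0.78 ± 0.12, SD, n = 5, exact p = 0.062). RPS22 differed by -0.64, -0.66, -0.70, -0.81 and -0.78 (mean -0.72 ± 0.07, SD, n = 5, exact p = 0.062), and here both copies were called lower, RPS22B with -1.34. The RPS22 difference was -0.55 when normexp background correction had an offset of 0. It was -0.94 with loess fitted without ribosomal protein spots. In all 5 pairs the sign was the same on every array. For RPS9, RPS14, RPS27 and RPS22 the copy with the dimmer wild type signal was the less reduced, and for RPS7 it was the brighter copy. The part of brightness in these differences was not tested.

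Smaller differences of 1 sign were seen in 8 pairs, among them RPS26, RPS28, RPS1, RPS23, RPS29 and RPS24. RPS26 encodes a protein of the mRNA exit that the chaperone Tsr2 delivers, and its A copy was above its B copy by 0.02, 0.73, 0.19, 0.94 and 0.24 (mean 0.43 ± 0.39, SD, n = 5), large only on the arrays with chs2Δ in Cy3. RPS28 differed by -0.45, -0.14, -0.31, -0.20 and -0.41 (mean -0.30 ± 0.13, SD, n = 5). RPS28B, with a ratio of -0.76 beside -1.06 for RPS28A, is known to be tuned by its own protein through decay of its mRNA. The other 6 pairs had mean sizes between 0.11 and 0.27, with A lower for RPS1 and RPS24 and B lower for RPS23 and RPS29. The sign was barely held for RPS23 on replicate 1 (0.0084) and for RPS29 on replicate 4 (0.0019). Both values, like the 0.02 of RPS26 on replicate 1, were below the median difference of 0.15 between duplicate spots. RPS24 was compared on 3 arrays, where the smallest exact p is 0.25.

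In the 11 remaining pairs the sign changed between arrays. Closest were RPS16 with -0.018 and RPS21 with -0.030, and RPS6, RPS18 and RPS25 were the widest with 0.29, -0.28 and 0.26. Over the 24 pairs the A and B ratios had a Pearson correlation of 0.54 (Spearman 0.603), and over the 19 pairs without the 5 largest differences it was 0.875, again a description over genes. Among RPS pairs 13 of 24 (54.2%) were of 1 sign, the median size was 0.264, 5 were above 0.7 and the largest was 1.45. Among the paralogs of the large subunit 22 of 33 RPL pairs (66.7%) were of 1 sign, the median size was 0.35, 9 were above 0.7 and the largest was 1.93. The 2 sets of pairs were not tested against each other.

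**Figure D3:**
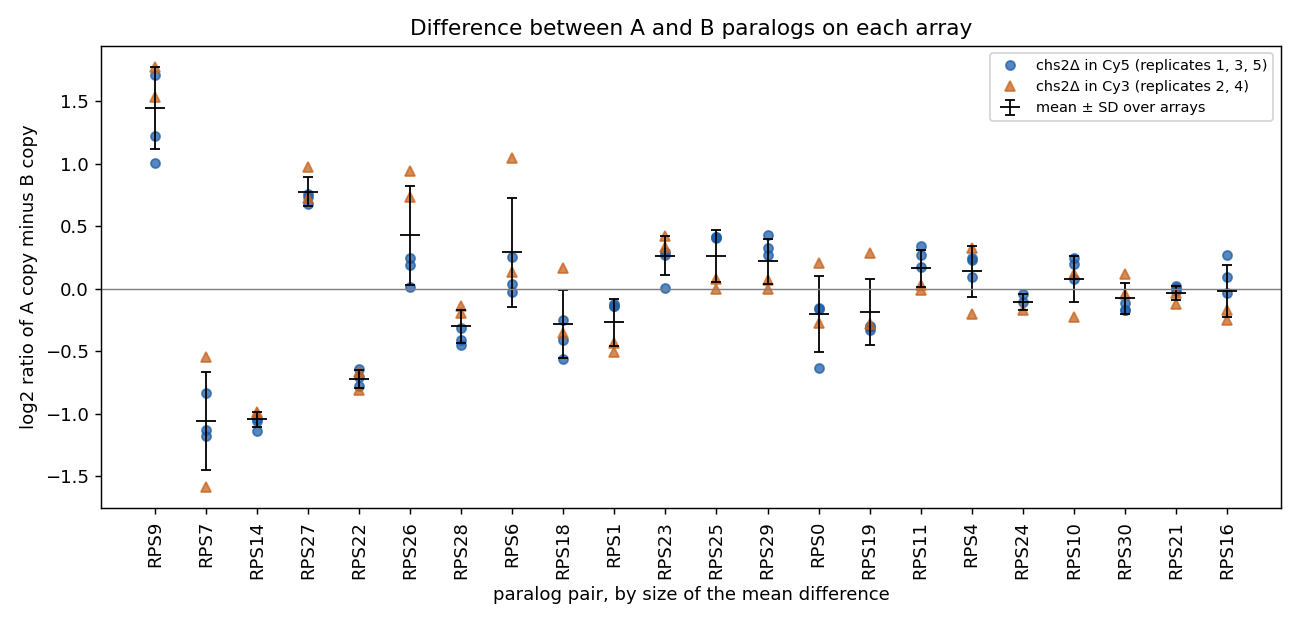
Difference of the log2 ratios (chs2Δ over wild type) of the A and the B copy of 22 of the 24 RPS pairs on each array, with mean ± SD over arrays in black and pairs ordered by size. RPS9, RPS7, RPS14, RPS27 and RPS22 lie away from 0 on every array, with means of 1.45, -1.06, -1.04, 0.78 and -0.72.

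Dye orientation moved with the ratios of the RPS genes. The 2 orientations were held by different replicate cultures, so dye and culture cannot be told apart. Replicate 4, which stood apart, was 1 of the 2 arrays with chs2Δ in Cy3 (RPS median -1.57, against -1.30 on replicate 2). Among the 55 genes measured in both orientations, 47 (85.5%) had a lower ratio with chs2Δ in Cy3 than with chs2Δ in Cy5, beside 49.5% of all genes. The RPS median was -1.42 with chs2Δ in Cy3 and -1.13 with chs2Δ in Cy5, and the median difference was -0.29 for RPS genes, -0.29 for RPL genes and 0.0029 for all genes. No gene of the array passed an adjusted p of 0.05 for a dye term in limma, while 27 RPS genes (49.1%) had an unadjusted p below 0.05, against 20.7% of all genes. RPS31 differed most in p, with a mean of -2.95 in Cy3 and -1.98 in Cy5 (unadjusted p = 1.12e-05, adjusted p = 0.0696). RPS26A ran the other way, with -1.24 in Cy3 and -1.63 in Cy5. In both orientations 51 RPS genes were below 0, and with the dye term in the fit 51 were called lower, beside 37.7% of all genes.

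**Figure D4:**
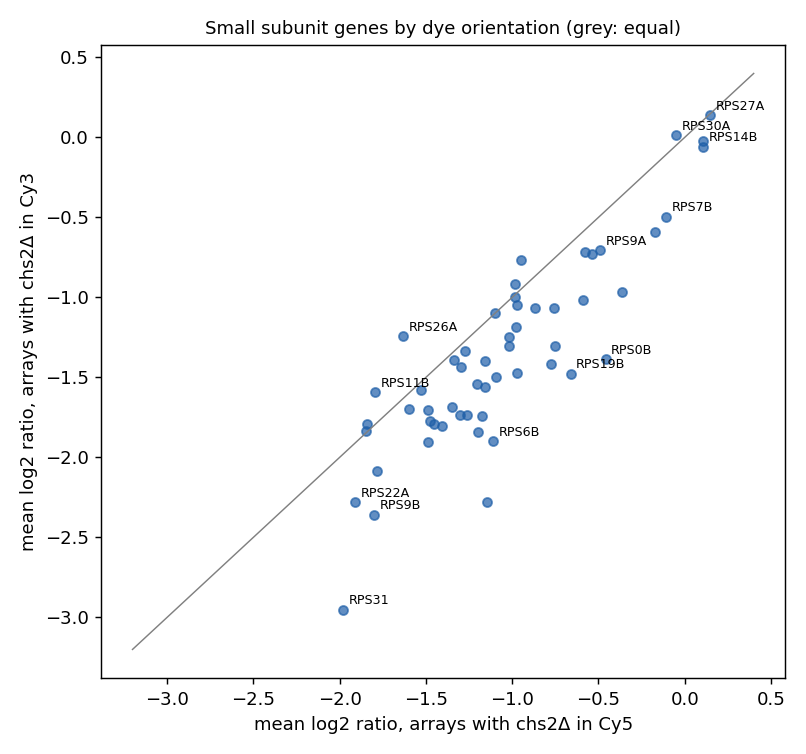
Mean log2 ratio (chs2Δ over wild type) of RPS genes on the 3 arrays with chs2Δ in Cy5 (x axis) and on the 2 arrays with chs2Δ in Cy3 (y axis), with the grey line marking equal values. Most points, 47 of 55, lie under the line, and RPS31 lies lowest on both axes.

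Several RPS genes adjoin another ribosomal protein gene in the RefSeq annotation, and neighbours had like ratios in some cases and unlike ratios in others. RPS14B and RPS22A are convergent neighbours and had ratios of 0.042 and -2.06. RPS22A has RPL39 (-0.85) on its other side, transcribed divergently. The divergent pairs RPS16A with RPL13B (-1.65 and -1.27), RPS16B with RPL13A (-1.64 and -1.38) and RPS15 with RPP2A (-1.36 and -1.02) had closer values. On the same strand lay RPS9B and RPL21A (-2.02 and -1.48).

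The RPS genes were set beside the genes of their own assembly, regulation and use. Of the 76 RPL genes of the large subunit 70 were lower and 1 was higher (median -1.14), with RPL1B lowest at -2.32, RPL24B the higher one at 0.37. Of 5 genes for the stalk, which recruits translation factors, 4 were lower (median -1.02), with RPP2B lowest at -1.51 and RPP1A the least at -0.48. For the mitochondrial small subunit 8 of 15 genes were lower and 3 higher (median -0.25), beside 36% lower and 35.7% higher on the whole array, MRPS9 being lowest at -0.64 and RSM27 highest at 0.83. With median centring 11 of these 15 were lower and 2 higher (median -0.38), beside 41.6% lower and 41.5% higher over all genes.

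Factors that mature the small subunit were mostly lower too. Of 16 factors of the pre-40S particle 13 were lower and 1 was higher (median -0.94), beside 36% and 35.7% on the whole array. TSR1, a factor that resembles a GTPase and blocks early translation, was lowest at -1.43, and NOB1, the endonuclease that makes the mature 3′ end of the 18S ribosomal RNA, had -1.42. RIO1, a kinase of the last steps, was the gene called higher, at 0.85 (adjusted p = 4.79e-06), but with median centring it was at 0.16 and had no call. All 3 dedicated chaperones were lower, TSR2 of Rps26 at -1.07, TSR4 of Rps2 at -0.77 and YAR1 of Rps3 at -0.50. Of 6 modifying enzymes 5 were lower, among them the methyltransferase SFM1 of Rps3 at -1.33, the hydroxylase TPA1 of Rps23 at -0.92, the methyltransferase TAE1 of Rps25 at -0.46, the ubiquitin ligase HEL2 at -0.45 and the kinase YPK3 at -0.27. The arginine methyltransferase HMT1 of Rps2 had -0.06 (adjusted p = 0.326) and was called lower with median centring, at -0.75 (adjusted p = 1.93e-05). All 11 proteins that bind the finished subunit were lower (median -1.11), with STM1, for a protein of idle ribosomes, lowest at -1.89 and the initiation factor gene NIP1 highest at -0.33.

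Among 14 regulators of these genes 4 were lower and 4 were higher, with a median of 0.10. Each share (28.6%) was below that of the whole array, 36% lower and 35.7% higher. FHL1, the forkhead factor bound at these promoters, was higher at 1.13, 1.70, 1.75, 1.16 and 1.35 on replicates 1 to 5 (mean 1.42, adjusted p = 6.68e-06), or 2.67-fold. HMO1, a high mobility group protein of the same promoters, was higher at 1.14 (adjusted p = 7.56e-07). SCH9, the TOR-dependent kinase, had 0.42, and YAK1, a kinase held back by protein kinase A, had 0.29, both called higher. Lower were IFH1, the coactivator of Fhl1, at -0.63, RAP1 at -0.37, MRS6 at -0.28 and TOR2 at -0.18. SFP1 (0.0029), TOR1 (0.10), KOG1 (0.02), LST8 (0.18), CRF1 (0.11) and TCO89 (0.11) did not pass the test. With median centring 6 regulators were called higher and 5 lower, beside 41.5% and 41.6% of all genes, and CRF1, the corepressor that replaces Ifh1, was then called higher at 0.99. The 4 genes higher after loess were then at 1.02 (FHL1), 0.51 (HMO1), 0.26 (SCH9) and 0.75 (YAK1). The 4 lower after loess were at -1.02 (IFH1), -0.85 (RAP1), -0.50 (MRS6) and -0.64 (TOR2).

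**Figure D5:**
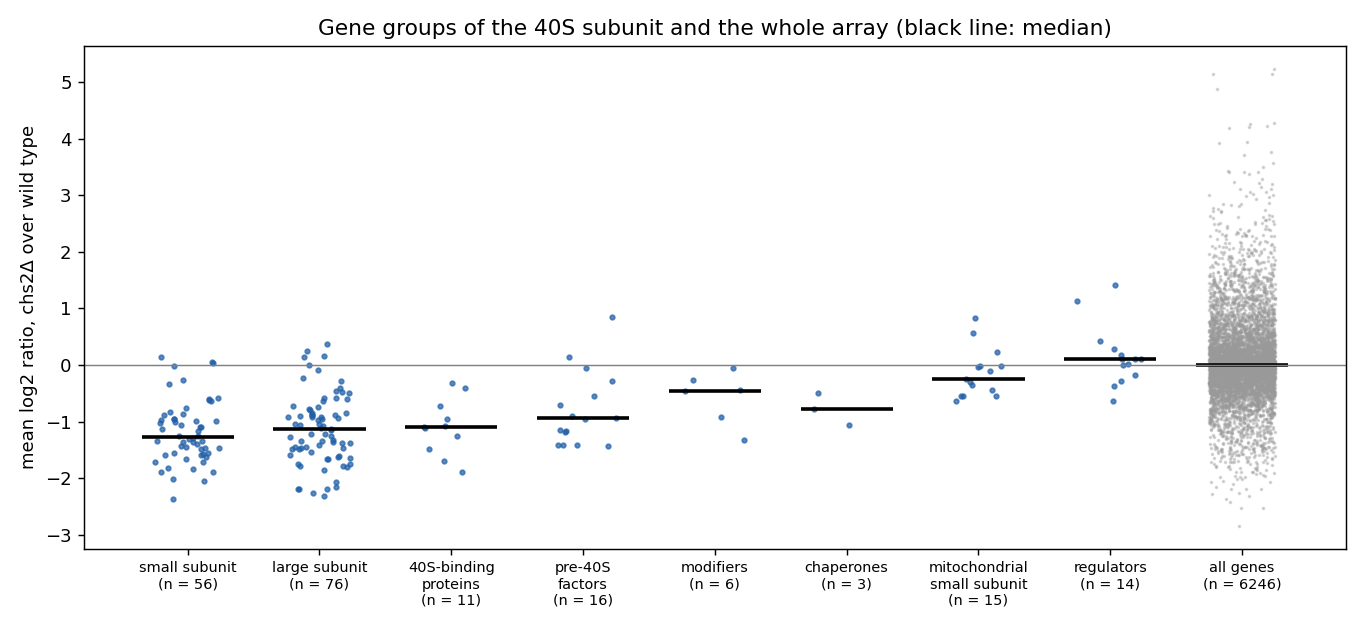
Mean log2 ratio (chs2Δ over wild type) of each gene in 8 gene groups and of all 6246 genes tested, with a black line at each median. The medians of the RPS and RPL genes lie at -1.28 and -1.14, those of the mitochondrial small subunit and the regulators at -0.25 and 0.10, and that of all genes at -0.0062.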

How the data were processed

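The authors amplified 1.0 µg of total RNA from each culture, labelled it with Cy3 or Cy5 and hybridised both strains on Agilent yeast oligo arrays at 60 °C for 17 h. The authors deposited ImaGene spot tables (version 6.0.0 per the file headers, 3.0 per the labels) with the intensity of each channel, plus a table of their background-corrected, lowess-normalized log2 ratios, used as an alternative only. ImaGene intensity values were not normalized before deposit. Here intensities were corrected with normexp (offset 50) and each array was fitted by loess (span 0.3, control and poor spots at weight 0) in limma 3.58.1 (R 4.3.3, statmod 1.5.0, jsonlite 2.0.0). Spots marked poor were left out, spots of a gene averaged and ratios turned to chs2Δ over wild type, with the orientation taken from the labels' dyes. Gene lists and members were chosen with earlier results of these data known. The moderated test ran over 6246 genes with Benjamini-Hochberg adjustment and a threshold of 0.05. The p-values measure the spread between 5 arrays, whose number limits the precision, and the arrays lay on 3 slides. Paralogs were compared by the exact sign-flip test. Any RPS gene could be named, with detail for single-copy genes, pairs of 1 sign or among the 6 largest in difference, genes without a call and genes with 1 array apart. Of the other lists the lowest and highest called genes were named, and every regulator, chaperone and modifier. ORF names were turned into symbols through RefSeq, which matched 5756 of 6256 genes. The test was checked on simulated data with a small share of changed genes, equally many up and down, and with channels of like brightness. The real arrays differ from it on the share and on the brightness, so the check does not cover the choice of scaling. Alternatives covered background, scaling, spots, slides, dye, thresholds and each array left out. Introns, protein and promoter sequences were not used here, and 0 sample columns were unused. A few genes are counted but not reported by name here.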

Additional observations from a re-analysis of the deposited data

Results flagged for a closer look

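Among 55 genes (CHS2 included) and 23 pairs with at least 4 arrays, 4 genes and 3 pairs had 1 array far from the others, where chance alone gives about 1 in 20. In 4 genes replicate 4 was the low one. RPS6B was at -2.65 on it and between -1.15 and -1.06 on the other arrays, and RPS7B was at -1.02 against -0.17 to 0.04. RPS13 was at -1.30 against -0.93 to -0.80, and RPS19A at -1.90 against -1.04 to -0.88. The RPS6 difference (A minus B) was accordingly 1.04 on replicate 4 and between -0.02 and 0.26 elsewhere. On replicate 2 the RPS19 difference was 0.29, against -0.33 to -0.28, and the RPS27 difference was 0.98, against 0.68 to 0.76. Of these 7 deviations 5 were on replicate 4, and their cause was not tested.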

How the results depend on the processing

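The count of RPS genes lower in chs2Δ (51) was between 45 and 56 over all alternatives, and between 50 and 51 with each array left out. The 45 was the case where dim genes were left out and 50 RPS genes remained, beside 39% of all genes. Over the alternatives the share of all genes called lower ran between 25.5% (slide 3 alone) and 41.6% (median centring), and between 32.5% and 35.7% with each array left out. The count of higher RPS genes (0) became 1 without background correction (RPS27A), with the first spot of each gene (RPS30B) and without replicate 4 (RPS27A), so it ran between 0 and 1 over the arrays left out. The median log2 ratio was -2.03 with median centring and -1.51 with loess fitted without ribosomal protein spots, and between -1.30 and -1.19 with each array left out. RPS14B (-0.55), RPS27A (-0.45) and RPS30B (-0.38) changed sign with median centring, and the cause was not tested. Pairs of 1 sign (13) were 9 with the last spot of each gene, 17 with the first, 12 with poor spots kept, 21 on the 2 arrays of slide 2 and between 13 and 19 with each array left out, fewer arrays leaving fewer chances for a sign to change. CHS2 lay between -0.93 and -0.61 with each array left out and was -0.47 without background correction, -1.23 with a normexp offset of 0, -1.21 with median centring, and -0.52 and -1.11 with its first and last spot. Of 1839 gene and pair values under alternatives 1806 kept the direction and call of the gene or lay within 1 SD of the pair's difference. Sizes moved more, for instance to -1.23 for RPS23A and -1.74 for RPS0B with median centring. The mean difference turned sign in some alternative for 6 pairs (RPS0, RPS4, RPS10, RPS16, RPS21 and RPS30), and for 0 of the 13 pairs of 1 sign. Keeping poor spots and weighting both dye orientations equally were chosen after seeing the data. With slide as a random block (correlation -0.134) 51 RPS genes were lower, beside 36.9% of all genes. The ratio within each array already pairs both strains, so the test over 5 arrays is the paired analysis. The chs2Δ channel was above background for 73.9% to 83.2% of gene spots, and 89.1% to 94.3% in wild type, which limits dim genes more than the bright RPS genes.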
